A study of Mus musculus with 13 samples.

Results

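The DNA replication licensing genes are described here across mouse brain age: the 6 genes of the helicase ring (Mcm2, Mcm3, Mcm4, Mcm5, Mcm6 and Mcm7), the loading factors Cdc6 and Cdt1, the helicase activator Mcm10 and the sliding clamp gene Pcna. The members were chosen by name, 10 of the 37785 genes counted in each library, and each was matched to 1 Ensembl identifier. All 10 passed the filter on low counts, as did 21170 genes in all.

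Before a cell copies its DNA, the origin recognition complex, Cdc6 and Cdt1 load the ring of Mcm proteins onto origins, a step called licensing. In S phase the ring is activated with the help of Mcm10, Cdc45 and the GINS proteins, and the clamp formed by Pcna then holds the polymerases on the template. Most of these genes are targets of E2F transcription factors and are transcribed in proliferating cells. Oligodendrocyte precursor cells (OPCs) are glial progenitors that keep the capacity to divide in the adult brain, with a cell cycle that lengthens with age.

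Total RNA was sequenced from cells of wild-type C57BL/6 mouse brain that were enriched magnetically on PDGFRα, a receptor of OPCs, in 13 libraries. The groups were embryonic day 16 (E16, 3 libraries), postnatal day 12 (P12, 3), postnatal day 80 (P80, 3) and postnatal day 310 (P310, 4). The labels also list 2 P80 animals as 81 days old and the P310 animals as a few days under their title's age. Only P80 and P310 suspensions passed through myelin removal beads, so bead use cannot be told apart from adult age. P12 libraries 2 and 3 were nearly identical (chi-square per degree of freedom 2.34 over coding genes, against at least 16.6 in 14 other pairs within an age). Their counts were summed, which leaves 12 samples and n = 2 at P12.

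Library totals ran from 8669521 to 25810455 counts, and the mitochondrial genome took 1.52% to 34.4% of them, with the highest shares in adult libraries. Markers of other cell types were present at every age. The 8 OPC markers, Pdgfra among them, were detected in every sample apart from C1ql1 at 0 in 1 P80 sample, and their summed level was 309 ± 36.1 CPM at E16, 253 ± 25.0 at P12, 156 ± 31.0 at P80 and 149 ± 66.5 at P310 (SD). Vcan made up most of this sum at E16, at 243 CPM against 34.2 CPM at P12. The other 7 markers, a split chosen after the values were seen, summed to 66.4 ± 12.1 CPM at E16, 219 ± 10.1 at P12, 141 ± 34.8 at P80 and 139 ± 67.3 at P310, so without Vcan the sum was lowest at E16. Of these 7, Cspg4 had the highest mean at P80 and P310, and it was also counted as a mural cell marker. Its means were 13.6 CPM (E16), 59.6 (P12), 85.2 (P80) and 67.1 (P310). Olig1, Olig2 and Lhfpl3 had lower means at P80 than at E16, while Pdgfra, Sox10 and C1ql1 had higher ones. Among the 8 OPC markers, 1 was called lower at P12 against E16 (Vcan) and 1 higher (Cspg4). CPM are counts per 1000000 counts of a library after TMM scaling. Endothelial markers summed to 41.6 to 65.2 CPM at E16 and to 3571 to 6621 CPM in postnatal samples, and all 8 were called higher at P12 than at E16. Immature neuron markers went the other way, from 6289 to 7465 CPM at E16 to 96.5 to 303 CPM afterwards, with 7 of 8 called lower at P12. Neural progenitor and radial glia markers summed to 1327 to 1473 CPM at E16 and 863 to 1483 CPM afterwards. Of these 8, 4 were called lower at P12 and 0 higher, where 10.5% of all genes tested were called lower and 16.7% higher. Eomes went from 207 to 3.39 CPM at P12 and Neurog2 from 72.2 to 0.650 CPM. Nes and Vim were not called, at 305 and 567 CPM at E16 and 405 and 899 CPM at P12. Oligodendrocyte markers reached 67251 CPM in P310 replicate 2, against 60.0 to 8178 CPM in the samples of E16, P12 and P80. The female transcript Xist and the Y-linked transcript Ddx3y were both present in the 3 E16 samples and P12 replicate 1, at 141 to 294 CPM and 11.2 to 20.5 CPM, so those samples hold RNA of both sexes. P12 replicate 2-3 had Xist at 1.21 CPM and Ddx3y at 49.4 CPM, so the P12 samples differ in sex. Adult samples had Xist at 424 to 811 CPM and Ddx3y at no more than 0.0891 CPM, so sex and adult age cannot be told apart. In bulk RNA, fewer dividing cells and less licensing RNA per cell cannot be told apart either, and the part of cell makeup in the results below was not tested.

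Promoter sequence is shown first, because E2F control is what these genes are best known for. The files measure transcript levels, not binding. RefSeq promoter windows on GRCm38.p6, from 250 bases before to 50 bases after the start site, matched 9 of the 10 members, with 10 windows in all. Each window was searched on both strands, overlaps included, for 4 spellings of the E2F site (TTTGGCGC, TTTCCCGC, TTTCGCGC and TTTGCCGC). A match was found in 6 of 10 windows (60%), in the genes Mcm3, Mcm5, Mcm6, Mcm7, Cdc6 and Cdt1. The pathway lists below, which include E2F and pocket protein genes, had one in 24 of 77 windows (31.2%). All genes had one in 744 of 32851 windows (2.26%). Median GC content was 57.5% in member windows, 63.7% in pathway list windows and 52.7% in all windows. The part of GC content in these shares was not tested. The stretches that hold the matches follow, read 5′ to 3′ on the gene's strand, with the matched bases in capitals.
Mcm3, chr1:20820266-20820294, minus strand: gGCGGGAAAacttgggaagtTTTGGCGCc
Mcm5, chr8:75109345-75109378, plus strand: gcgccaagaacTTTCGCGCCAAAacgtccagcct
Mcm6, chr1:128359793-128359826, minus strand: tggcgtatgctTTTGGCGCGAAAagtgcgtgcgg
Mcm6, chr1:128359734-128359763, minus strand: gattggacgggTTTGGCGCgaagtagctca
Mcm7, chr5:138172030-138172059, minus strand: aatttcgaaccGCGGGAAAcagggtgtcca
Mcm7, chr5:138171849-138171878, minus strand: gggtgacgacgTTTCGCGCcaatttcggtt
Cdc6, chr11:98908002-98908031, plus strand: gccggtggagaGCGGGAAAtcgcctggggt
Cdt1, chr8:122568036-122568064, plus strand: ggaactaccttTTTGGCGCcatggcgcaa

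In Mcm5 and in the first Mcm6 stretch a pair of matches on opposite strands overlapped, so that the capitals form a near palindrome. The Mcm3 stretch, the second Mcm7 stretch and the Cdt1 stretch lay past the RefSeq start site. The Mcm2, Mcm10 and Pcna windows and the second Mcm7 window held none of the 4 spellings, which says only that these letters are not in those 300 bases. The CCAAT box, searched on both strands, was found in 8 of 10 windows (80%) against 37.4% of all windows. The cell cycle element TTTGAA was found in 1 (10%), that of Mcm2, against 17.9% of all windows. A match is a description of the letters and not a measured binding site.

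All 10 licensing genes had their highest mean level at E16 and were lower at P80, by between 2.42-fold (Mcm4) and 34.2-fold (Mcm10). Their summed level was 516 ± 27.3 CPM at E16, 177 ± 43.9 at P12, 91.5 ± 3.35 at P80 and 94.0 ± 14.2 at P310 (SD over 3, 2, 3 and 4 samples). The members did not fall equally. Relative to the E16 mean, Mcm4 stood at 41.3%, Pcna at 30.7% and Mcm6 at 26.8% at P80, whereas Cdc6 stood at 6.62%, Mcm5 at 3.09% and Mcm10 at 2.70%. These differences between members were not tested.

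**Figure D1:**
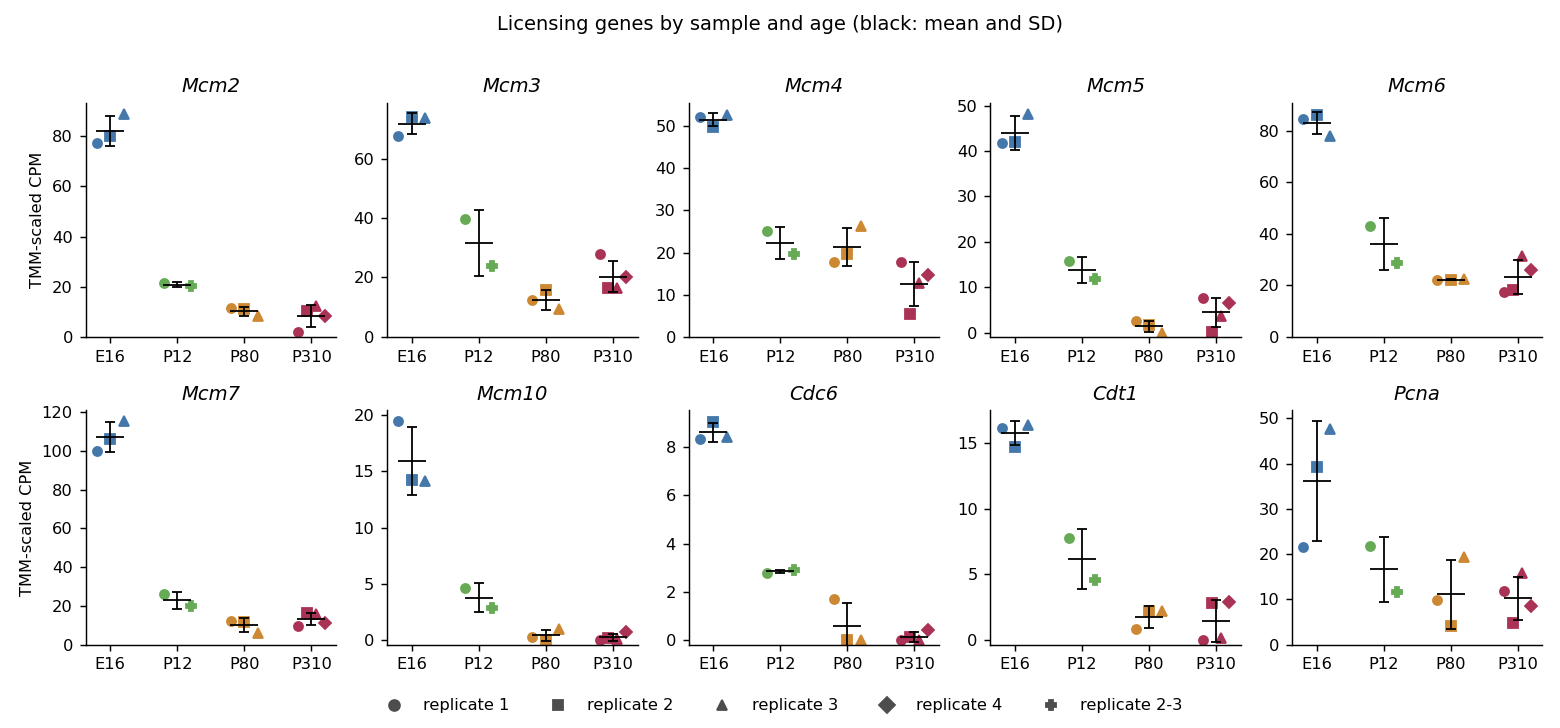
Level of each licensing gene in TMM-scaled CPM (y axis, linear, each panel with its own scale) by age (x axis), with 1 point per sample and the mean and SD in black. The 3 E16 samples lie above every later sample in each panel except that of Pcna.

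Mcm7, a ring subunit on chromosome 5 (chr5:138164583-138172422, minus strand), had the highest level at E16, 99.8, 106 and 115 CPM in the 3 samples. It stood at 25.9 and 19.8 CPM in the P12 samples, 12.4, 11.9 and 5.98 CPM at P80, and 9.77, 16.1, 15.5 and 11.1 CPM at P310. No E16 sample overlapped with any later one, and both P12 samples were above all adult samples. The change from E16 to P12 was -2.23 on the log2 scale (SE 0.356, adjusted p 2.55e-04, edgeR quasi-likelihood test with Benjamini-Hochberg adjustment over all genes tested), and that from E16 to P80 was -3.41 (SE 0.323, adjusted p 1.06e-06). Both calls held under all 20 alternative fits. Because reads were counted without regard to strand, 12.6% of the exonic bases of Mcm7 are shared with Cops6 and Ap4m1 on the other strand and with the nested microRNA genes Mir25 and Mir93. Another gene, Gm5487, that is 97.7% identical over 2157 bases was not analysed here, so the level of Mcm7 may include reads of these genes.

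Mcm2, the subunit that also binds histones H3 and H4 at the fork (chr6:88883474-88898780, minus strand), followed a similar course. Its E16 samples stood at 77.4, 80.2 and 88.9 CPM and its P12 samples at 21.5 and 20.1 CPM. At P80 it stood at 11.5, 11 and 8.28 CPM, and at P310 at 2.11, 10.2, 12.4 and 8.50 CPM. The groups E16, P12 and adult did not overlap, and P310 replicate 1 was lowest. Its log2 change was -1.98 at P12 against E16 (SE 0.495, adjusted p 0.00771) and -3.0 at P80 against E16 (SE 0.446, adjusted p 8.64e-05). Without P12 replicate 1 or without P12 replicate 2-3 the first call was lost, with adjusted p 0.0524 and 0.0690.

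Mcm3 (chr1:20802968-20820312, minus strand) and Mcm6 (chr1:128331590-128359664, minus strand), which are ring subunits as well, kept more of their E16 level. Mcm3 stood at 67.6, 74.0 and 73.7 CPM at E16, at 39.6 and 23.7 CPM at P12, at 12.3, 15.8 and 9.32 CPM at P80 and at 27.8, 16.6, 16.6 and 20.1 CPM at P310. Mcm6 stood at 84.5, 86.1 and 77.9 CPM at E16, at 43.0 and 28.8 CPM at P12, at 22.1, 22.0 and 22.6 CPM at P80 and at 17.4, 18.0, 31.3 and 26.1 CPM at P310. In both genes the E16 samples lay apart from the rest, and P310 samples reached into the range of the P12 samples. Mcm3 fell by 1.18 on the log2 scale from E16 to P12 (SE 0.334, adjusted p 0.0162), and Mcm6 fell by 1.21 (SE 0.30, adjusted p 0.00749). Without P12 replicate 2-3 these were -0.86 (adjusted p 0.191) and -0.95 (adjusted p 0.112). At P80 both were called lower than at E16, Mcm3 by 2.53 (SE 0.307, adjusted p 1.27e-05) and Mcm6 by 1.90 (SE 0.268, adjusted p 5.40e-05), in all 20 alternatives too.

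Mcm4, a subunit of the catalytic core of the ring (chr16:15623897-15637400, minus strand), showed the smallest fitted change from E16 to P80. At P310 it stood at 24.5% of its E16 mean, below Mcm3 at 28.3%, Pcna at 28.2% and Mcm6 at 28.0%. Its levels were 52.2, 49.7 and 52.6 CPM at E16, 25.0 and 19.6 CPM at P12, 17.9, 19.6 and 26.3 CPM at P80, and 17.7, 5.50, 12.7 and 14.6 CPM at P310. E16 stood apart from all later samples, while the P12 and P80 samples overlapped. The log2 change at P12 against E16 was -1.21 (SE 0.401, adjusted p 0.0364), a call lost in 6 of 20 alternatives, each of the 5 that left out an E16 or P12 sample among them (adjusted p 0.0688 to 0.228). P80 differed from P12 by -0.07 (SE 0.386, adjusted p 0.991). P80 differed from E16 by -1.28 (SE 0.351, adjusted p 0.00947), which held in all 20 alternatives.

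Mcm5, which with Mcm2 forms the gate of the ring (chr8:75109569-75128439, plus strand), had the lowest P80 level among the ring genes relative to E16, while at P310 it stood at 10.1% of E16, as did Mcm2. It stood at 41.7, 41.9 and 48.2 CPM at E16 and at 15.8 and 11.7 CPM at P12. At P80 it stood at 2.47, 1.61 and 0 CPM, and at P310 at 7.52, 0.220, 3.57 and 6.46 CPM. The 3 age blocks E16, P12 and adult did not overlap. The P80 sample at 0 had a floor of 0.213 CPM, the level that 3 counts would give in that library, and P310 replicate 2 held 2 counts. P80 was lower than E16 by 5.01 on the log2 scale (SE 1.13, adjusted p 0.00441). The change at P12 was -1.68 (SE 1.10, adjusted p 0.296) and did not pass the test, although both P12 samples lay below all E16 samples. Limma-voom and the fit without a filter on low counts did call it (adjusted p 0.00536 and 0.00511). Stretches of 55 to 141 bases of Mcm5 transcripts are at least 95% identical to transcripts of 8 other counted genes or to 1 gene not analysed here, and multiply mapped reads were counted, so a few reads may belong elsewhere.

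Cdc6, the ATPase that helps bring the ring to origins (chr11:98907801-98923940, plus strand), was the lowest of the members by level per kilobase at E16 and P310. It stood at 8.35, 9.05 and 8.43 CPM at E16 and at 2.80 and 2.91 CPM at P12. At P80 it stood at 1.71, 0 and 0 CPM and at P310 at 0, 0.110, 0 and 0.425 CPM. In all, 4 of the 7 adult samples had no count, with floors of 0.213 to 0.346 CPM, and P310 replicates 2 and 4 held 1 and 5 counts. P80 was lower than E16 by 3.82 on the log2 scale (SE 1.27, adjusted p 0.0271), a call lost in 5 of 20 alternatives (adjusted p 0.0599 to 0.0629), each of them without an E16 or P80 sample. Without P80 replicate 1, the only P80 sample with counts, the fitted change was -10.08 (adjusted p 8.81e-04), a value against samples at 0 that depends on the prior count and is no bound. The change at P12 was -1.59 (SE 1.32, adjusted p 0.409). Gm9430, 95.2% identical to Cdc6 over 1528 bases, was not analysed here.

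Cdt1, which carries the ring to the origin and is held in check by geminin (chr8:122568015-122573554, plus strand), stood at 16.1, 14.7 and 16.3 CPM at E16 and at 7.78 and 4.58 CPM at P12. Adult samples stood at 0.824, 2.22 and 2.23 CPM at P80 and at 0, 2.86, 0.178 and 2.89 CPM at P310. Every adult sample was below both P12 samples, which were below all E16 samples. P80 was lower than E16 by 3.17 on the log2 scale (SE 0.963, adjusted p 0.0173), and without P80 replicate 1 this was -2.81 (adjusted p 0.0641). The change at P12 was -1.35 (SE 1.02, adjusted p 0.361).

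Mcm10, which acts on the loaded ring when origins fire (chr2:4989714-5012791, minus strand), showed the largest fitted change from E16 to P80, ahead of Mcm5 by less than the SE of either. With limma-voom Mcm5 came first (-5.91 against -5.50), and without P80 replicate 1 Cdc6 and Mcm5 did. Its levels were 19.4, 14.2 and 14.2 CPM at E16 and 4.67 and 2.88 CPM at P12. They were 0.317, 0 and 0.974 CPM at P80 and 0, 0.220, 0.0891 and 0.680 CPM at P310. Adult libraries with counts held from 1 read (P310 replicate 3) upward, and none reached a level of 1 CPM. P80 was lower than E16 by 5.1 on the log2 scale (SE 0.963, adjusted p 6.78e-04), in all 20 alternatives too. Mcm10 was also the only member called between P310 and P12, at -3.79 (SE 0.917, adjusted p 0.0408), but 9 of the 12 fits that left out a sample lost that call (adjusted p 0.0545 to 0.278). The change at P12 against E16 was -2.08 (SE 0.948, adjusted p 0.121).

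Pcna, the clamp (chr2:132249162-132253314, minus strand), varied most between samples at E16, relative to its mean, of the 10. It stood at 21.7, 39.2 and 47.7 CPM at E16, at 21.7 and 11.6 CPM at P12, at 9.82, 4.2 and 19.3 CPM at P80 and at 11.7, 4.84, 15.9 and 8.41 CPM at P310. E16 replicate 1 was about as high as P12 replicate 1, so these groups overlapped. P80 was lower than E16 by 1.69 on the log2 scale (SE 0.540, adjusted p 0.0217), and without E16 replicate 3 this was -1.44 (adjusted p 0.0817). Leaving out E16 replicate 2, P80 replicate 1 or P80 replicate 2 also ended the call (adjusted p 0.0536 to 0.0701). The change at P12 was -1.12 (SE 0.607, adjusted p 0.193). A pseudogene, Pcna-ps2, is 99.2% identical to Pcna over 781 bases, and its own counts averaged 15.1 ± 5.18 CPM at E16, 5.88 ± 2.68 at P12, 3.02 ± 1.02 at P80 and 5.40 ± 1.99 at P310 (SD), so Pcna levels may include reads shared between the 2.

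Counted by step, 5 of 10 members (Mcm2, Mcm3, Mcm4, Mcm6 and Mcm7) were called lower at P12 than at E16 and 0 higher, where 10.5% of all genes tested were called lower and 16.7% higher. The median log2 change of the 10 was -1.47, against 0.09 over all genes tested. In 9 of 10 members, all except Pcna, both P12 samples lay below all 3 E16 samples, as in 30.9% of all genes. The 5 members not called were the 4 with the lowest E16 level per kilobase (Mcm5, Cdt1, Mcm10 and Cdc6) and Pcna. Limma-voom called all 10 in this comparison.

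From P12 to P80, all 10 members had a negative log2 change with a median of -1.26 (all genes -0.03), yet none was called by edgeR. At an unadjusted p below 0.05, 6 of 10 were lower, as were 6.07% of all genes. In this step 1.02% of all genes tested were called lower and 0.406% higher, and P12 had n = 2. Mcm3 came nearest at -1.35 (SE 0.321, adjusted p 0.0552). DESeq2 called 3 members (Mcm3, Mcm7 and Mcm10), limma-voom 0, and the fit without a filter on low counts 4 (the same 3 and Mcm5). In 8 of 10 members every P80 sample lay below both P12 samples, as in 15.5% of all genes, and the exceptions were Mcm4 and Pcna.

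Between P80 and P310 no member was called by edgeR, DESeq2 or limma-voom, and edgeR called 0% of all genes lower and 0% higher. The median log2 change of the members was -0.17, with 6 of 10 negative, and all genes stood at 0.03. Mcm3 was higher in all 4 P310 samples than in all 3 P80 samples (log2 change 0.70, SE 0.279, unadjusted p 0.0237, adjusted p 0.871), as were 2.27% of all genes. Mcm4 was lower in all 4 (log2 change -0.75, SE 0.325, unadjusted p 0.0355, adjusted p 0.871), as were 2.59% of all genes. These were the 2 members at an unadjusted p below 0.05, where 2.56% of all genes were lower and 2.91% higher.

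The comparison of P80 with E16 shares its samples with those steps. All 10 members were called lower, with a median log2 change of -3.08 (all genes 0.12), where 19.2% of all genes were called lower and 21.5% higher. Every P80 sample lay below every E16 sample in all 10, as in 30% of all genes. Between P310 and P12, which also share samples with the steps, 1 member was called lower (all genes 1.79% lower and 0.713% higher). A test of any difference among the 4 ages called all 10 members, and 37.1% of all genes. This call was lost for Pcna without E16 replicate 2 or 3 (adjusted p 0.0926 and 0.148) and for Cdt1 without E16 replicate 1 or 3 (adjusted p 0.0521 and 0.0547).

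**Figure D2:**
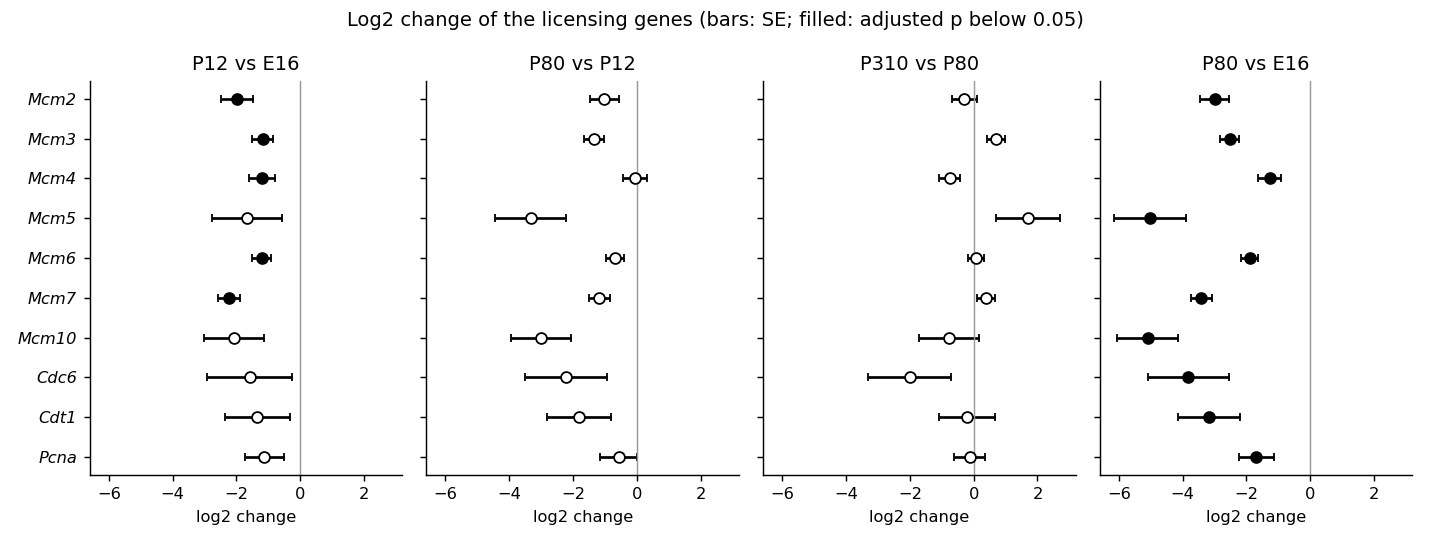
Log2 change (x axis) of each licensing gene (y axis) in 4 comparisons, with bars for the SE and filled symbols for an adjusted p below 0.05. All changes are negative from E16 to P12 and from P12 to P80, and the P310 against P80 changes lie on both sides of 0.

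Per kilobase of annotated exon, the order of the members changed with age. The length used takes in every annotated exonic base of a gene, not only those of the transcripts expressed. Comparisons between genes on this scale are therefore approximate. At E16 the mean was 24.2 CPM per kb for Mcm7, above 19.1 for Mcm3, 17.8 for Mcm6, 15.1 for Pcna and 14.3 for Mcm4, then 11.8 for Mcm2 and 11 for Mcm5. Cdt1 at 5.0, Mcm10 at 2.07 and Cdc6 at 1.65 CPM per kb came last. The E16 samples of a gene did not overlap with those of the next in this order after Mcm7, Mcm4, Mcm5, Cdt1 and Mcm10, while the other neighbours overlapped. At P80 Mcm4 led at 5.92 CPM per kb, above every sample of the next, Mcm6 at 4.76, but within the wide spread of Pcna, at 4.63 ± 3.19 (SD). At P310 Mcm3 led at 5.41, overlapping with Mcm6 at 4.97, Pcna at 4.26, Mcm4 at 3.52 and Mcm7 at 2.96.

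The ring contains each of its 6 subunits once, and on this approximate scale their transcripts were closer in level at E16 than in the adult samples. At E16 the most abundant of the 6 exceeded the least abundant 2.16 to 2.29 times per kilobase in each sample, with Mcm7 highest and Mcm5 lowest. The ratio was 2.19 and 3.41 at P12. In P80 replicates 1 and 2 it was 8.04 and 13.6, with Mcm4 highest and Mcm5 lowest, and in P80 replicate 3 Mcm5 had no count. At P310 it ran from 4.58 (replicate 4) to 80.3 (replicate 2), where Mcm5 rests on 2 counts. As a share of the summed 6 per kilobase, Mcm4 went from 14.6% ± 0.645 at E16 to 18.4% ± 1.22 at P12, 33.0% ± 8.37 at P80 and 17.8% ± 5.83 at P310 (SD). The share of Mcm7 went from 24.6% ± 0.909 to 15.3% ± 0.756, 12.5% ± 4.04 and 16% ± 6.04. That of Mcm5 went from 11.2% ± 0.585 to 10.2% ± 0.290, 1.85% ± 1.73 and 5.45% ± 3.98. Mcm4 was therefore the largest share in all 3 P80 samples, between 27.6% and 42.6%, above its range in all other samples. The sum over the ring was 94.8 to 102 CPM per kb at E16 and 15 to 20.8 CPM per kb in the 7 adult samples.

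**Figure D3:**
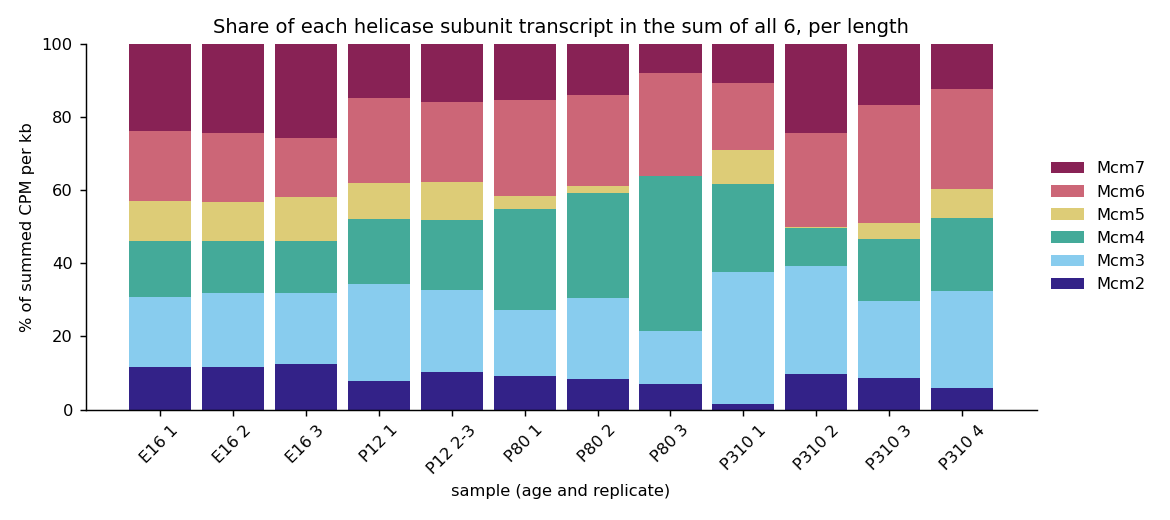
Share of each helicase subunit transcript (coloured segments, percent of the summed CPM per kilobase of Mcm2 to Mcm7, y axis) in each of the 12 samples (x axis). The 3 E16 bars look alike, Mcm4 takes 27.6% to 42.6% of the P80 bars, and the Mcm5 segment is smallest at P80.

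Genes that mark S phase to mitosis in cells of any type (Mki67, Top2a, Cdk1, Ccnb1, Ccnb2, Aurkb, Bub1 and Cenpf) were summed for comparison. Their summed level was 1018 ± 122 CPM at E16, 345 ± 31.9 at P12, 14.7 ± 3.21 at P80 and 17.2 ± 16.6 at P310 (SD). The licensing sum divided by this sum was 0.432 to 0.612 at E16 and 0.452 and 0.565 at P12. It was 5.04 to 7.53 at P80 and 2.39 to 14.3 at P310, so all adult samples lay above all E16 and P12 samples. From P12 to P80, 6 of the 8 cycle genes were called lower, against 0 of the 10 licensing genes and 1.02% of all genes tested. This contrast was not tested. Of the cycle genes, Cdk1, Aurkb and Bub1 had no count in the 3 P80 samples, and Ccnb1 and Ccnb2 had none in 2 and 1 of them. Mki67, Top2a and Cenpf were detected in each. Of the licensing genes, Mcm2, Mcm3, Mcm4, Mcm6, Mcm7, Cdt1 and Pcna were detected in each P80 sample, while Mcm5, Mcm10 and Cdc6 were not. P310 replicate 4 had the highest adult cycle sum, 41.5 CPM, and the lowest adult ratio. The cells that carry the adult licensing RNA cannot be told from these values: endothelial, microglial and astrocyte marker sums were all above their E16 ranges in every adult sample, and their part was not tested.

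**Figure D4:**
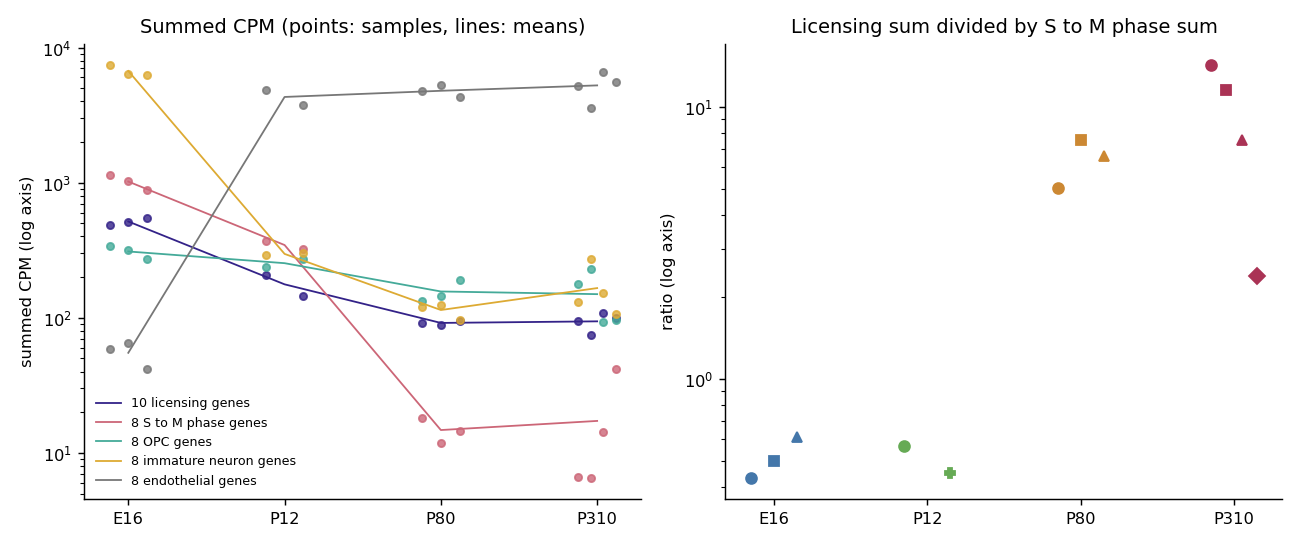
Left, summed CPM of the licensing genes and of 4 marker lists (y axis, log scale) by age, with points for samples and lines for means. Right, the licensing sum divided by the S to M phase sum (log scale), which lies below 1 in the E16 and P12 samples and between 2.39 and 14.3 in adult samples.

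Other genes of the replication pathway, and E2F and pocket protein genes, were grouped by role and counted in the same fit. The lists were chosen with earlier results of these data known, so their directions are descriptions. Over all genes tested, 10.5% were called lower and 16.7% higher at P12 against E16. At P80 against E16 these shares were 19.2% and 21.5%, and from P12 to P80 they were 1.02% and 0.406%. The list counts below were not tested against these shares. Of the 6 subunits of the origin recognition complex, which marks origins, 1 was called lower at P12 against E16 and 0 higher, with a median of -0.74. That was Orc2, at -1.0 (adjusted p 0.0497), from 28.9 CPM at E16 to 14.5 at P12 and 15 at P80. At P80 against E16 there were 2 called lower, with a median of -0.39.

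Of 13 genes that control licensing, 5 were called lower at P12 and 0 higher (median -1.51), and 8 at P80 against E16 (median -2.28). Dtl, which targets Cdt1 for destruction, went from 19.9 to 4.7 CPM (log2 change -2.08, adjusted p 0.0207). Skp2, another ubiquitin ligase subunit that acts on Cdt1, went from 23.4 to 5.24 CPM (log2 change -2.16, adjusted p 0.0239). Dbf4, the activating subunit of the Cdc7 kinase that phosphorylates the ring, went from 25.1 to 8.55 CPM (log2 change -1.55, adjusted p 0.0292). In the step from P12 to P80, 1 of the 13 was called, Ccna2, cyclin A, from 24.3 to 5.04 CPM (log2 change -2.29, adjusted p 0.0385).

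Of 12 genes of helicase activation, origin firing and fork protection, 5 were called lower at P12 and 0 higher (median -1.21), and 8 at P80 against E16 (median -2.11). Gins2, a GINS subunit, went from 88.1 to 24.2 CPM at P12 and 20.5 CPM at P80 (P12 log2 change -1.87, adjusted p 4.24e-04). Ticrr, needed to recruit Cdc45, went from 19.7 to 4.06 CPM (log2 change -2.27, adjusted p 0.0173). Timeless, of the fork protection complex, went from 42.5 to 22.2 CPM at P12 (log2 change -0.93, adjusted p 0.0125) and stood at 33.7 CPM at P80, where the difference from E16 did not pass the test (adjusted p 0.243). A further list of 4 held the ring relatives Mcm8, Mcm9 and Mcmdc2 and the gene of the MCM-binding protein, Mcmbp. Mcmbp is also among the genes that control licensing above. Of these 4, 0 were called at P12 and 1 was called lower at P80 against E16, with medians of -0.25 and -0.53.

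Of 12 polymerase and primase genes, 3 were called lower at P12 and 0 higher (median -1.07). They were Prim1, the primase subunit (17.7 to 2.60 CPM, log2 change -2.76, adjusted p 0.00836), Pole3 (49.8 to 18.3 CPM, -1.45, adjusted p 0.0130) and Pold1 (27.0 to 12.4 CPM, -1.12, adjusted p 0.0132). At P80 against E16 there were 7 called lower and 1 higher, the small polymerase delta subunit gene Pold4, from 3.87 to 10.9 CPM (log2 change 1.48, adjusted p 0.0119). Pole, the catalytic subunit of polymerase epsilon, was the one called from P12 to P80, from 14.9 to 2.69 CPM (log2 change -2.49, adjusted p 0.0326).

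Among 13 genes of clamp loading and Okazaki fragment processing, 2 were called lower at P12 (median -1.09) and 5 at P80 against E16 (median -2.06), with 0 higher. Lig1, the ligase that joins Okazaki fragments, went from 80.2 to 29.2 CPM at P12 (log2 change -1.46, adjusted p 0.00169), and Rnaseh2a went from 33.3 to 8.79 CPM (log2 change -1.92, adjusted p 0.0164). Among 8 genes of deoxynucleotide supply, 2 were called lower at P12 (median -1.29): Dut, from 32.3 to 6.50 CPM (log2 change -2.32, adjusted p 0.00964), and Rrm1, the large ribonucleotide reductase subunit, from 88.1 to 34.1 CPM (log2 change -1.37, adjusted p 0.0130). At P80 against E16, 5 were lower and 1 higher (median -1.93). The one higher was Rrm2b, the small reductase subunit that is used outside S phase, from 11.4 CPM at E16 to 17.8 at P12 and 34.2 at P80 (log2 change 1.59, adjusted p 2.99e-04).

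Of 13 E2F and pocket protein genes, 2 were called lower at P12 and 0 higher (median -0.70): Rb1, from 48.9 to 25.7 CPM (log2 change -0.92, adjusted p 0.0179), and Tfdp1, the dimer partner of E2F proteins, from 61.0 to 29.9 CPM (log2 change -1.03, adjusted p 0.0319). At P80 against E16, 5 were lower and 1 higher (median -0.84). Rbl2, the pocket protein p130 that is bound to E2F4 in resting cells, was the one higher, from 33.4 to 50.4 CPM (log2 change 0.59, adjusted p 0.0300). Rrm2b, Pold4 and Rbl2 were thus the 3 listed genes called in the direction opposite to their list's median.

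Correlations among the members were lower once E16 was set aside. Over the 12 samples, the correlation of each member's log2 CPM with the mean of the other 9 ran from 0.738 (Pcna) to 0.955 (Mcm6). Over the 9 postnatal samples it ran from 0.325 (Mcm4) to 0.831 (Cdc6). These values are descriptions, since samples of an age share their cell makeup and the low counts of Mcm10, Cdc6 and Cdt1 add noise. Every member had its highest mean at E16, so setting E16 aside also narrows the range of values. That alone can lower such correlations.

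The 7 coding genes whose profile over the 12 samples was most like the members' mean, among 12250 with a mean of at least 5 CPM, were Racgap1 (r = 0.989), Hist1h2br (0.988), Hist1h2bq (0.987), Hist1h3i (0.987), Hist1h2ai (0.985), Kif2c (0.985) and Hist1h2ba (0.984). Racgap1, a regulator of cytokinesis, averaged 68.6 ± 3.54 CPM at E16, 22.2 ± 0.670 at P12, 8.11 ± 1.88 at P80 and 6.19 ± 0.787 at P310 (SD). Kif2c, a kinesin of the kinetochore, went from 27.3 ± 2.50 to 5.40 ± 0.160, 0.169 ± 0.293 and 0.0648 ± 0.0818 CPM. The 5 histone genes have near-identical copies and the counts include multiply mapped reads, so which copy was transcribed is uncertain.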

How the data were processed

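The authors deposited unnormalized read counts for each gene, which, per the file headers, came from featureCounts 1.5.0-p1 on exons of the Ensembl GRCm38 release 92 annotation. Reads that mapped to several places or overlapped several genes counted for each. The overlap had to reach 10 bases, and strand was ignored. Trim Galore and TopHat2 2.1.1 are named in the submitters' processing notes. Identifiers were named from GENCODE M21 (37715 of 37785).

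The title's age set each sample's group. Counts were filtered by filterByExpr, TMM scaled and tested with edgeR 4.0.16 (robust quasi-likelihood F test, R 4.3.3, 1 mean per age over 12 samples, Benjamini-Hochberg over 21170 genes, threshold 0.05). The common BCV (biological coefficient of variation) of the fit was 0.513. The code was tested on simulated data, in which a sizeable share of the genes given a known change at P12 was not called. A member not called at P12 against E16 can therefore still differ between these ages. DESeq2 1.42.0, limma 3.58.1 and 6 further settings were alternatives, besides leaving out each sample. The titles number mice, and nothing ties a number to a shared litter. The E16 samples and P12 replicate 1 held RNA of both sexes, so whether each is a single mouse is not known. The p-values therefore measure the spread between these samples, which need not be that between single mice.

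The members and lists were chosen with earlier results of these data known. All members are named. Of each pathway list, up to 3 genes with the smallest adjusted p at P12 against E16 are named, with any called gene in a list that goes against its median direction, and also Ccna2 and Pole, chosen after their values were seen. Profile likeness used log2 CPM with a prior count of 2. The rule was to name the 8 most alike genes, of which the eighth is not reported here. Floors are 3 counts of the library total and cover counting error only. Transcripts sharing at least 50 bases at 95% identity were found with BLAST+ 2.17.0.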

Additional observations from a re-analysis of the deposited data

How the results depend on the processing

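In all, 20 alternatives were run, 12 of which left out 1 sample. The calls at P80 against E16 held for all 10 members in every alternative that kept all samples. Of members called, limma-voom gave 10 at P12 against E16, the fit without a low-count filter 7, and DESeq2 and the fit with P12 replicates 2 and 3 apart 6 each. Leaving out a sample gave 1 (without P12 replicate 2-3) to 5. At P80 against P12, members called were 4 without a low-count filter, 3 by DESeq2, 1 with P12 replicates 2 and 3 kept apart, and 0 to 1 with a sample left out. At P310 against P80 they were 1 (Mcm5) without a filter. At P310 against P12 they were 5 without a filter, 2 by DESeq2, 3 by limma-voom and 0 to 1 with a sample left out. The causes were not tested.

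Over all genes, P80 against P12 gave 877 calls without a filter, 637 by DESeq2, 490 by limma-voom and 521 with P12 replicates 2 and 3 apart, against 301. With samples left out it gave 71 (without P12 replicate 1) to 446. P12 against E16 gave 6527, 7060, 8342 and 7665 in these 4 settings, in the same order, against 5765. With a sample left out it gave 3748 to 6553. P310 against P80 gave 423 without a filter and 28 by DESeq2 against 0, and 0 to 1 with a sample left out. P310 against P12 gave 1285, 1065, 947 and 1012 in the same 4 settings against 531, and 158 to 683 with a sample left out.

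Directions turned only where a change was not called. Mcm4 at P80 against P12 was 0.00 (0.0006047) with P12 replicates 2 and 3 apart, and -0.24 to 0.11 with a sample left out. At P310 against P80 limma-voom gave 0.11 for Pcna. With a sample left out, the ranges at P310 against P80 were -0.55 to 0.016 for Mcm2, -0.11 to 0.18 for Mcm6, -2.03 to 0.44 for Mcm10, -3.80 to 4.26 for Cdc6, -0.77 to 0.18 for Cdt1 and -0.51 to 0.51 for Pcna.

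Same-numbered samples of different ages correlated at -0.0936 to 0.208 (15 pairs) and others at -0.233 to 0.233. Each correlation of P12 replicate 1 with a sample of another age recurred with the opposite sign for the summed P12 sample. That summed sample also joins replicates with different numbers. These ranges therefore cannot decide whether the numbers pair samples. With a replicate block, members called were 4, 0, 0, 10 and 1 in the 5 comparisons in the order above (P12 against E16, P80 against P12, P310 against P80, P80 against E16, P310 against P12) and all genes 5368, 243, 0, 8267 and 392. The block turned Mcm6 to -0.026 and Pcna to 0.030 at P310 against P80. Counts of Cdc6, Mcm10, Cdt1 and Mcm5 were low in adult samples, where 8 values were at 0. P310 replicate 1, the library with the lowest total, had 0 counts of Cdc6, Mcm10 and Cdt1 but 57 of Mcm5. The part of depth in these low values was not tested.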
